A study of Caenorhabditis elegans with 8 samples.

Results

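Caenorhabditis elegans larvae of the first stage (L1), kept without food, that lack both spr-5 and met-2 were compared with wild-type N2 larvae through the authors' deposited comparison of their RNA. That table lists 50832 RefSeq transcripts, of which 27634 had any reads and 6904 reached a base mean of at least 50. The base mean is the authors' mean of scaled reads over the 4 libraries of a comparison. Of the 6904 transcripts, 6055 carried a gene symbol, and they stood for the 6022 genes described here, each by its transcript with the largest base mean. The minimum was a choice of depth: C07A4.2 lay just inside it at 50.02 with a log2 fold change of -0.84 in the authors' deposited table, and rad-54.L just outside it at 49.91 with 0.46.

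N2 carries no mutation of either gene. The double mutant carries the allele by101 of spr-5, on chromosome I, together with the allele n4256 of met-2, on chromosome III. The single mutants set beside it carry only by101 or only n4256. Each group had 2 libraries, so the comparison rests on 4 of the 8 libraries of the series. Every group was grown on OP50 bacteria at 20 °C, and each preparation took 200 to 250 larvae that hatched overnight into M9 buffer without food at 21 to 22 °C. RNA came from whole animals, so that for any gene, fewer cells of a type and less RNA per cell cannot be told apart.

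spr-5 encodes the worm LSD1, which removes methyl groups from lysine 4 of histone H3, a mark of transcribed chromatin. met-2 encodes a SETDB1-like enzyme that adds methyl groups to lysine 9 of histone H3, a mark of silent chromatin. Both are known for resetting histone marks between parent and offspring, and the double mutant asks what happens to transcripts when both steps are missing. At hatching the germline consists of a pair of primordial germ cells, and a larva without food stops growing until it feeds. The deposited values give no reading of either histone mark.

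No column holds the value of a single library, so levels are given as base means, and every fold change, standard error (SE) and adjusted p of a gene is the authors' own, from DESeq2. A transcript is called when the authors' adjusted p is under 0.05, and rose and fell are used for called transcripts alone. Nothing in the labels says that the 2 libraries of a group came from separate cultures, so these p-values measure the spread between libraries, which may be technical. Base means summed to 4.97e+06 scaled reads in the table of the double mutant. Over the 6022 genes the median SE in the authors' deposited table was 1.01 on the log2 scale, against 0.80 in the spr-5 comparison and 0.74 in that of met-2. Even below a base mean of 1 no SE exceeded 1.19, which shows that the fold changes were shrunken towards 0 and understate changes from few reads. The smallest called change was 3.57 in size, and the largest that was not called was 4.39, for F19B10.14, so differences of a few fold could not be called at this depth and replication.

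Markers of larval tissues were checked by their base means. Body muscle and pharynx were plainly present, with base means of 67973 for unc-54, 7268 for myo-3 and 30364 for myo-2, and 82.5 for pha-4, in the authors' deposited table. The intestinal genes elt-2 and ges-1 had 176 and 147. The neuronal markers rab-3 and unc-119 had 6.65 and 0.82, the hypodermal dpy-7 had 0.54, and elt-3 was listed at 0. Of the germline precursor markers, glh-1 had a base mean of 607 and pgl-1 of 0.82. Genes with several listed transcripts were often low: 35.9% of protein-coding genes with 1 listed transcript reached a base mean of 50, against 14.8% of those with 3 or more, and 72 of the 76 called protein-coding genes had 1. Of the low markers, unc-119 and elt-3 have 2 listed transcripts, while rab-3, dpy-7 and pgl-1 have 1. These markers were nearly absent from the table of the labelled whole larvae, and why was not tested. They do not stand for their tissues. In the neuron list 14 genes reached a base mean of 50, the largest 11852, as did 63 neuropeptide genes. In the hypodermis list 6 did, the largest 232. In the authors' deposited table the spr-5 transcript stood at 1.26 (SE 0.95) on the log2 scale in the double mutant and that of met-2 at -0.45 (SE 0.97), neither called. RNA may persist from a mutated gene, and these values are no check of the genotypes.

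Loss of both enzymes was followed by many more rises than falls. At a base mean of at least 50, 63 of the 6022 genes rose in the authors' deposited table and 4 fell, which is 1.05% and 0.0664% of them. Over all 12272 transcripts with an adjusted p, 87 were called (0.709%), of which 78 rose (0.636%) and 9 fell (0.0733%). At an unadjusted p under 0.05 the authors' table held 261 higher genes (4.33%) and 57 lower ones (0.947%). The median of all 6022 log2 fold changes was 0.09, computed from the authors' deposited table, and 55.0% lay above 0. A log2 fold change of -1 or less was listed for 7.06% of the genes. The median drifted with depth, from -0.02 at base means of 50 to 100 to 0.18 at 1000 or more, and from -0.31 below 1, where no transcript was called.

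**Figure D1:**
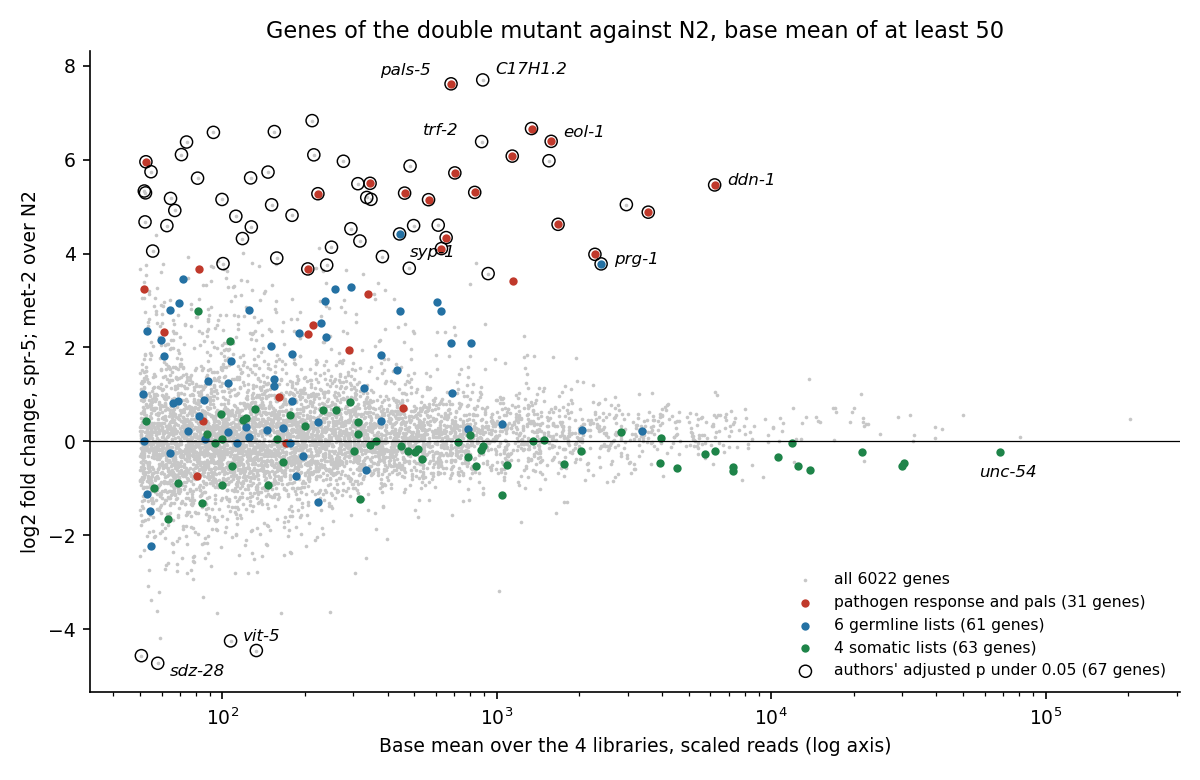
Each point is a gene of the double mutant comparison, with its base mean in scaled reads on a log x axis and its log2 fold change over N2 on the y axis. Red marks 31 genes of the pathogen response list or pals family, blue 61 germline genes, green 63 somatic genes, and black rings the 67 called genes, of which 63 lie above 0.

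Among the rises, transcripts nearly absent from N2 became common. The authors' deposited table put C17H1.2 at a log2 fold change of 7.70 (SE 1.08) and pals-5, best known as the reporter gene of the intracellular pathogen response, at 7.62 (SE 1.05), each with an adjusted p of 4.84e-09. The base mean of C17H1.2 was 888 in the double mutant comparison, 4.01 in that of spr-5 and 19.5 in that of met-2. All 3 comparisons contain the N2 libraries, and the mean of 2 of the 4 libraries cannot exceed the base mean by more than a factor of 2. That places an upper limit on the N2 level, and the double mutant was at least 221-fold higher for C17H1.2 and at least 191-fold higher for pals-5. These limits use no shrunken fold change, but they set values of tables against each other that the authors normalized separately.

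The other large rises had low N2 levels too. Across the 68 called transcripts at a base mean of at least 50 that rose (0.985% of the 6904), 66 gave such a limit, with a median of at least 28.4-fold and a range from 2.07 to 221. The remaining pair, pals-3 and fbxa-86, were listed at 0 in the spr-5 table. For 53 of the 68 the limit was at least 10-fold. In 22 it lay above the authors' own estimate, for example trpl-5, with 5.87 on the log2 scale in the authors' deposited table and a limit of at least 70.2-fold. After C17H1.2 and pals-5, the largest log2 fold changes in the authors' deposited table were 6.83 for ZK892.6, 6.66 for B0507.8, 6.60 for Y39H10B.3, 6.58 for B0507.9, 6.39 for both eol-1 and trf-2, and 6.38 for Y68A4A.13. The next were 6.11 for F28C10.1, 6.10 for F15H10.10, 6.08 for pals-2, 5.98 for F15D4.5, 5.97 for F57G4.11 and 5.96 for pals-3. They were followed by 5.87 for trpl-5, 5.74 for fbxa-86 and F20E11.17, and 5.72 for pals-27. The authors' deposited table also held transcripts without a symbol here, NM_058294 at 6.21 and NM_001136360 at 5.82. The base means of the 68 ran from 51.9 to 6217 with a median of 287, set mostly by the double mutant libraries, and the N2 mean was at most 10 for 23 of them.

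As a set, the same 68 transcripts had smaller listed fold changes in the single mutants. On the log2 scale their median over N2 was 5.15 for the double mutant, 0.41 for spr-5 and 1.22 for met-2, computed from the authors' deposited tables. They were picked for being high in the double mutant, and the 3 comparisons share the N2 libraries, so these medians describe and do not test. In spr-5, where 3 transcripts of the whole table were called (0.0101%), none of the 68 was, and values ran from -1.32 to 3.02. In met-2, where 9 were called (0.0647%), 7 of the 68 were among them, and values ran from -0.92 to 5.78. trf-2 shows the met-2 pattern, with 5.78 (SE 0.80) in met-2, 0.40 (SE 0.90) in spr-5 and 6.39 for the double mutant, by the authors' deposited tables. Its base mean was 1003 in the met-2 comparison and 880 in that of the double mutant. The larger fold change of trf-2 in the double mutant therefore does not show a higher level there than in met-2. F15H10.10 shows the other, with 0.08 (SE 0.67) in met-2, -0.01 (SE 0.64) in spr-5 and 6.10 (SE 1.11) in the double mutant there. No test of the double mutant against a single mutant can be made from these tables.

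The intracellular pathogen response was the group with the most rises. This is a set of genes that the worm raises together when microsporidia or the Orsay virus infect its intestine, or when the proteasome is blocked, and many of its members are pals genes, which are named for a sequence signature and for the most part have no known biochemical activity. Of 51 listed genes, 46 were in the table and 28 reached a base mean of 50. Of these 28, 18 rose and 0 fell in the authors' deposited table, against 1.05% and 0.0664% of all genes. Their median log2 fold change was 4.48, against 0.09 over all genes, 0.02 for the same genes in spr-5 and 0.57 in met-2, computed from the authors' deposited tables. Of the 28, 14 reached the minimum in the double mutant comparison alone, 11 of the 18 called among them, and such a gene had to be high there. Over all genes 5.43% did so. Of the 16 that reached 50 in a single-mutant comparison, 15 lay above 0 with a median of 2.94, against -0.02 over all such genes. Over all 43 listed genes with any value, whatever their depth, 41 lay above 0 with a median of 3.67, where the median of all 24323 genes with a value was -0.18.

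The pals family itself held 13 called rises among the 21 members at a base mean of at least 50, with a median of 4.34 computed from the authors' deposited table, against -0.05 in spr-5 and 0.05 in met-2. A further member, pals-37, rose at a base mean of 44.8, with 5.69 on the log2 scale (SE 1.23) in the authors' deposited table. Of the 21, 13 reached the minimum in the double mutant comparison alone, among them 10 of the called members, and the median of 4.34 is no support for the family. Over all 35 members with a value 30 lay above 0 with a median of 3.24, and of the 9 that reached 50 in a single-mutant comparison 6 lay above 0 with a median of 0.95, computed from the authors' deposited table. pals-14 was the most abundant, with a base mean of 3562 and 4.88 on the log2 scale (SE 1.04, adjusted p 0.00096) by the authors' deposited table. Its base means of 134 and 190 in the spr-5 and met-2 comparisons put the double mutant at least 25.7-fold above N2. The other rises in the authors' deposited table were 5.30 for pals-6, 5.29 for pals-29, 5.28 for pals-28, 5.15 for pals-39 and 4.62 for pals-26. pals-9, pals-4 and pals-33 had 4.34, 4.11 and 3.98 there, and these 3 calls were lost when the adjustment covered every p-value of the table (recomputed adjusted p 0.0501, 0.0535 and 0.0888). pals genes resemble each other, and reads that fit several members may be split between them, so single values are less certain than the family's.

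Not every pals gene followed. pals-22 and pals-25 are neighbours known for opposite control of this response, pals-22 holding it down and pals-25 turning it on. pals-22 had a base mean of 160 and 0.95 on the log2 scale (SE 0.99), and pals-25 a base mean of 170 and -0.03 (SE 1.03), in the authors' deposited table. pals-24 at 0.43 (SE 1.03) and pals-20 at -0.73 (SE 1.02) were also near 0 there. Between these and the called members lay pals-32 at 3.41, pals-30 at 3.24, pals-8 at 3.14 and pals-34 at 2.32 in the authors' deposited table, none of them called. Those 8 members without a call were named after their values were seen. The members at or near 0 all lie on chromosome III, as do pals-26, pals-27 and pals-28, which rose.

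**Figure D2:**
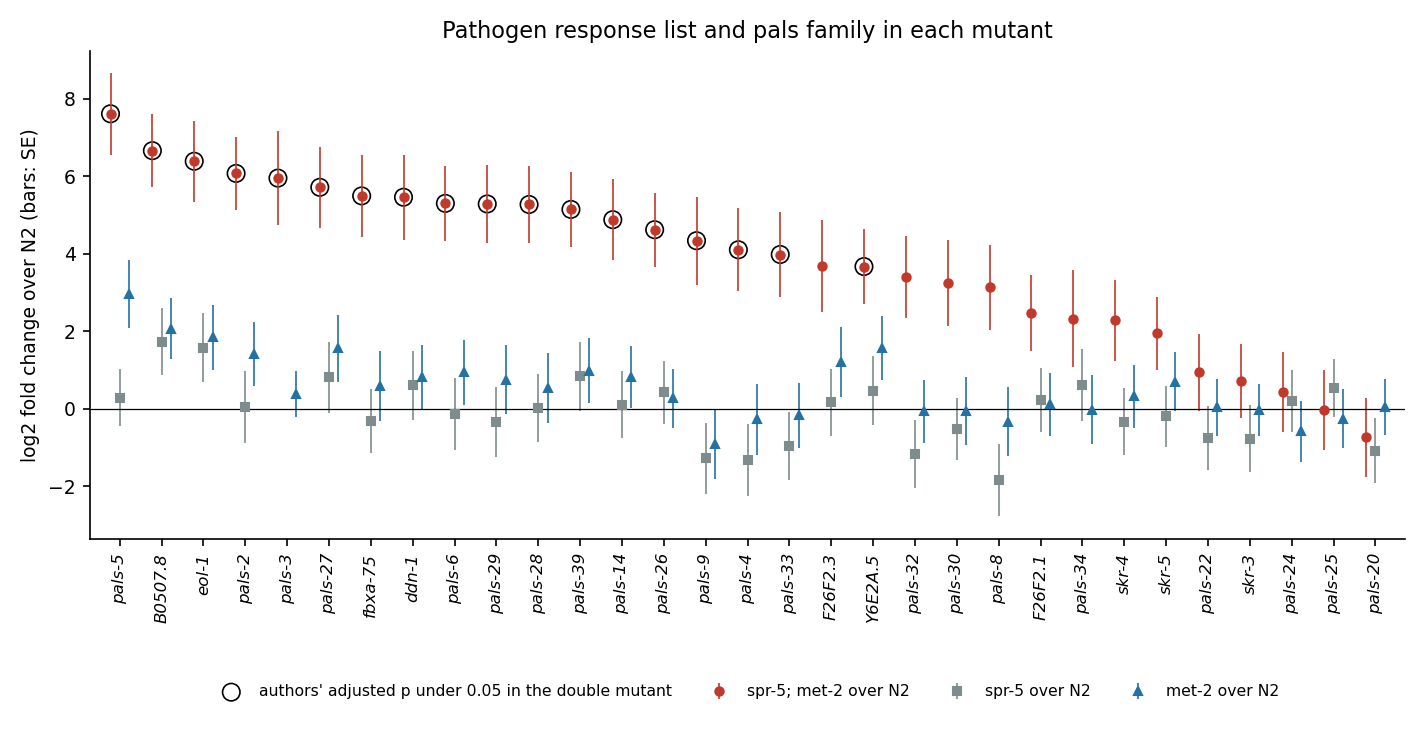
For 31 genes of the pathogen response list or pals family at a base mean of at least 50, points give the authors' log2 fold change over N2 in the double mutant (circles), spr-5 (squares) and met-2 (triangles) with SE bars, and rings mark the 18 called in the double mutant. In the double mutant values run from 7.62 for pals-5 to -0.03 for pals-25 and -0.73 for pals-20.

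Genes of the response outside the pals family rose as well. ddn-1, listed in the response under its clone name B0507.10, had the largest base mean of all rises, 6217, with 5.46 on the log2 scale (SE 1.10, adjusted p 0.00026) by the authors' deposited table. Its base means of 164 and 175 in the single-mutant comparisons put the double mutant at least 36.8-fold above N2. eol-1, a relative of the RNA-decapping exonuclease DXO, had a base mean of 1577 and 6.39 on the log2 scale (SE 1.04) in the authors' deposited table. B0507.8 had 6.66 (SE 0.94) at a base mean of 1337, and its values in spr-5 and met-2 were 1.73 and 2.07 in the authors' tables, not called. Y6E2A.5 had 3.67 (SE 0.97, adjusted p 0.0253) by the authors' deposited table, a call that the wider adjustment removed (0.0569). F26F2.3 at 3.68 (SE 1.19) and F26F2.1 at 2.47 (SE 0.99), both known to rise on microsporidia infection, were not called there and were named after their values were seen.

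The ubiquitin ligase of the response showed smaller values. In worms cul-6, skr-3, skr-4 and skr-5 are known to form a cullin ligase that acts in this response. skr-4 had 2.28 (SE 1.05), skr-5 1.95 (SE 0.94) and skr-3 0.72 (SE 0.96) in the authors' deposited table, and none was called. cul-6 had a base mean of 1.91 and drh-1, an RNA helicase that senses virus, 34.5, both too low for this account. Of the 12 skr and cul genes at a base mean of at least 50, 0 were called by DESeq2, against 1.11% of all genes. At an unadjusted p under 0.05, 3 were higher, against 4.33% of all genes. The median of the 12 was -0.01, computed from the authors' deposited table. The smallest p of these belonged to skr-2, with 2.44 (SE 0.97) in the authors' deposited table.

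Many of the called genes were neighbours. In the order of protein-coding genes in assembly WBcel235, used for order alone because the labels name ce10, 31 of the 76 called protein-coding genes lay within 5 steps of another called gene, in 10 runs. The 76 were called among 19983 protein-coding genes in that order. A run starts and ends at a called gene, so the share called inside it is high by construction. Whether called genes were neighbours more often than other genes was not tested. The largest run was on chromosome I, where 8 of 14 consecutive genes from C17H1.2 to pals-14 rose, by 4.11 to 7.70 in the authors' deposited table. The other 6 there were pals-10, pals-8, pals-11 and Y26D4A.21, at 4.17, 3.14, 3.96 and 2.01 and not called, pals-12, listed at 0, and pals-7, which was not matched. On chromosome V, 6 of 12 consecutive genes from droe-8 to B0507.9 rose, by 4.05 to 6.66, among them B0507.6 (5.04, base mean 2964), ZC196.4 (5.04) and ddn-1, in the authors' deposited table. Between them, ZC196.5 had 1.11 and ZC196.2 had 2.15 there, not called. B0507.4 and B0507.5 had 0.81 and 0.0018 at base means of 4.21 and 1.09, ZC196.3 was listed at 0, and B0507.7 was not matched. On chromosome III, 3 of 4 genes from pals-26 to pals-28 rose, by 4.62 to 5.72. The other 7 runs were pairs: F07E5.9 with trpl-5, set-24 with Y57A10A.2, C06E4.8 with F42C5.3, a pair of clone Y105C5A, Y39H10B.3 with pals-33, F15H10.9 with F15H10.10, and pals-37 with pals-39. Strand use in counting is not given in the sources used here. Genes within runs were named for their position. Of the 79 called genes with a symbol, 7 overlap another gene with a base mean of at least 10, and their reads could belong to it: C17H1.2, pals-3, pals-4, prg-1, srxa-10, F18A11.2 and F43G6.16.

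**Figure D3:**
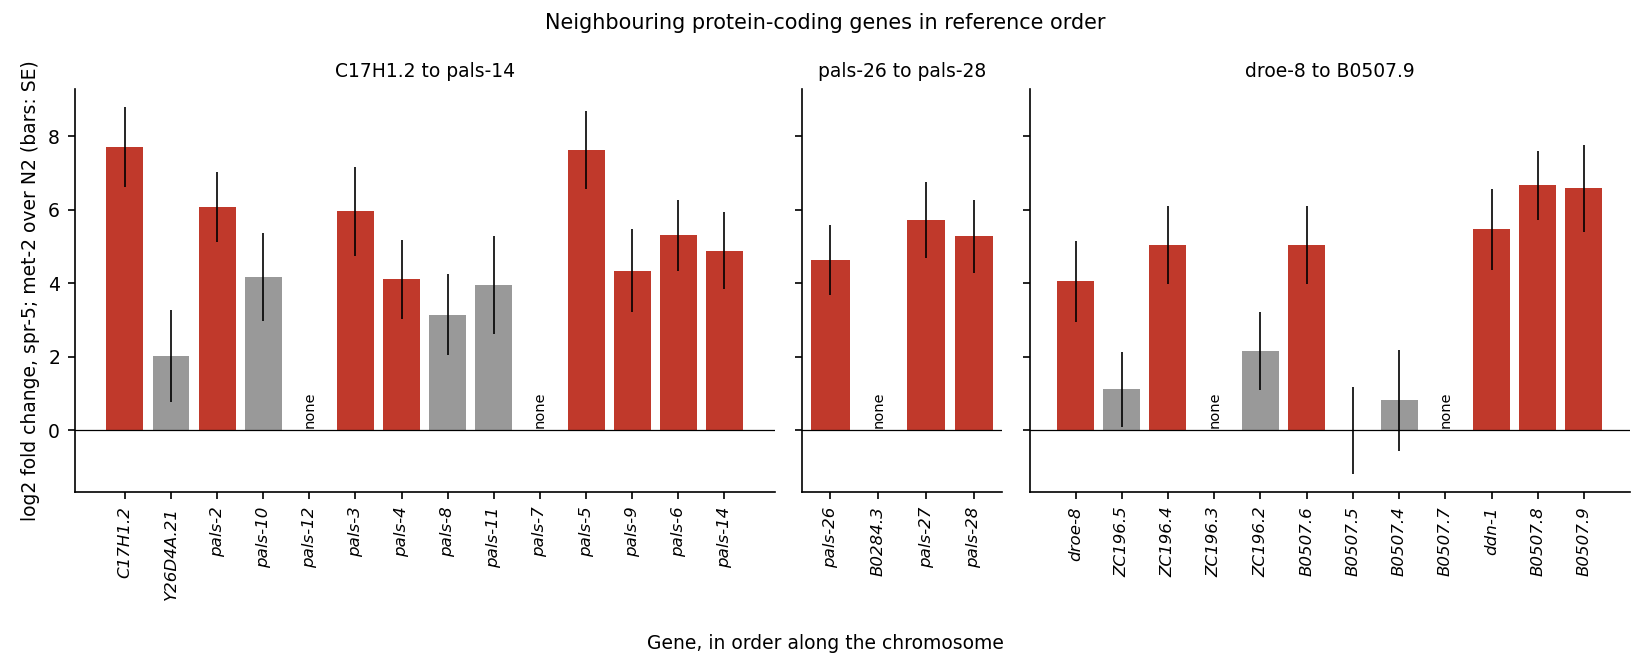
Bars give the authors' log2 fold change over N2 in the double mutant, with SE, for consecutive protein-coding genes of the 3 largest runs, in chromosome order. Red bars are called and grey bars are not, and none marks a gene with no reads or no match. The runs, which start and end at a called gene by definition, hold 8 of 14, 3 of 4 and 6 of 12 called genes.

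F-box proteins are adaptors that choose targets for cullin ubiquitin ligases, and the worm has a large family of them. Of the 26 at a base mean of at least 50, 4 rose and 0 fell in the authors' deposited table, against 1.05% and 0.0664% of all genes, and all 4 reached the minimum in the double mutant comparison alone. fbxa-86 had 5.74 (SE 1.24), fbxa-75, which belongs to the pathogen response list, 5.50 (SE 1.05), fbxa-7 5.33 (SE 1.17) and fbxa-165 5.16 (SE 1.02) there. Their base means were 54.9, 345, 51.9 and 348 in the double mutant comparison and between 0 and 10.9 in that of spr-5. fbxa-165 had 2.12 (SE 0.85) in met-2 in the authors' table, not called. The median of the 26 was 1.69, but 15 of them reached the minimum in the double mutant comparison alone. Over all 257 F-box genes with a value the median was -0.31, against -0.18 over all genes, computed from the authors' deposited table. Among those 257, 110 lay above 0. The same -0.31 was the median of all transcripts below a base mean of 1, so it does not mark the family as lower. Of the 20 F-box genes that reached 50 in a single-mutant comparison, 10 lay above 0. Their median was -0.03, against -0.02 over all such genes. Of 19 MATH, BATH and BTB genes, a family of adaptors for another cullin ligase, bath-21 rose, with 5.15 (SE 1.21, adjusted p 0.00505) by the authors' deposited table. That is 1 rise of 19, against 1.05% of all genes. math-21 had 3.14 (SE 1.25) in the authors' deposited table and was not called, nor was math-28. The family's median was 0.49, and 5 of the 19, bath-21 among them, reached the minimum in the double mutant comparison alone.

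Of the 67 called genes, 39 belonged to none of the 21 lists and 31 families. Those with names include set-24, which carries the SET domain found in histone methyltransferases, with 4.82 on the log2 scale (SE 1.03, adjusted p 0.00099) by the authors' deposited table. enu-3.3 had 4.61 (SE 1.00) at a base mean of 611, and nxf-2, of the nuclear RNA export factor family, 4.57 (SE 1.08) in the authors' deposited table. Y57A10A.2, the neighbour of set-24, was also called in met-2, with 3.93 (SE 0.84) against 5.61 (SE 1.10) in the double mutant, and had the smallest limit of all, at least 2.07-fold. F15D4.5 had 5.98 (SE 1.00) in the double mutant and 4.24 (SE 0.78) in met-2, called in both of the authors' tables. C46A5.6 and T08E11.1 had 4.53 (SE 1.05) and 4.27 (SE 0.97) in the authors' deposited table and, in met-2, 0.93 and -0.02. In spr-5 these genes had 2.04 (SE 0.85) and 1.28 (SE 0.88), neither called. The genes of this paragraph other than F15D4.5 were named after their values were seen.

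Germline genes had a higher median than all genes, though few were called. The 6 lists of germline function held 155 genes, of which 140 were in the table and 61 reached a base mean of 50. Of the 61, 2 rose and 0 fell in the authors' deposited table, against 1.05% and 0.0664% of all genes. At an unadjusted p under 0.05, 20 were higher and 1 was lower, against 4.33% and 0.947% of all genes. Their median log2 fold change was 1.03, with 51 of 61 above 0, and 0.19 and 0.05 in spr-5 and met-2, computed from the authors' deposited tables. Of the 61, 11 reached the minimum in the double mutant comparison alone. Over the 124 with any value, 86 lay above 0 and the median was 0.48, against -0.18 over all genes with a value.

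The meiotic chromosome axis and the synaptonemal complex, which hold paired chromosomes together in meiosis, had 1 rise among 6 genes. Of all genes 1.05% rose, and the list's median was 2.71, computed from the authors' deposited table. Of the 6, 4 reached the minimum in the double mutant comparison alone. Over all 14 members with a value the median was 1.75, and 14 lay above 0. syp-1, a central part of the complex, rose with 4.42 (SE 0.99, adjusted p 0.00227) by the authors' deposited table. Its base mean was 442 in the double mutant comparison, 33.3 in that of spr-5 and 519 in that of met-2, where it was called as well with 4.20. The axis proteins htp-3 and htp-1 had 3.25 (SE 0.97) and 3.46 (SE 1.09) in the authors' deposited table and were not called (adjusted p 0.0768 and 0.127). In met-2 these had 0.37 and 0.31. htp-2, coh-3, a meiotic cohesin subunit, and syp-3 had 2.17, 2.04 and 1.82 in the authors' deposited table. Of the recombination and pairing list, 4 genes reached a base mean of 50, 0 were called by DESeq2 or had an unadjusted p under 0.05, and the median was 0.62. sun-1, which ties chromosomes to the nuclear envelope for pairing, had 1.71 (SE 1.06), plk-2 0.81 (SE 1.02) and him-17 0.44 (SE 0.94) in the authors' deposited table.

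Small RNA pathway genes gave the other germline call. prg-1, the Piwi Argonaute that binds piRNAs, rose with 3.78 on the log2 scale (SE 0.94, adjusted p 0.0120) by the authors' deposited table, at a base mean of 2398. It had 1.86 (SE 0.73) in spr-5 and 2.05 (SE 0.68) in met-2, neither called. Its base means of 731 and 757 in the single-mutant comparisons put the double mutant at least 2.28-fold above N2, and D2030.12 overlaps it. Of the 19 genes of the list, 18 lay above 0, against 55.0% of all genes, and the median was 1.03. At an unadjusted p under 0.05, 6 were higher, against 4.33% of all genes. Of the 19, 3 reached the minimum in the double mutant comparison alone. Over the 27 with any value 23 lay above 0 with a median of 0.87, computed from the authors' deposited table. The Argonautes ppw-1 and wago-4 had 2.96 (SE 1.12) and 2.52 (SE 0.95) there, and csr-1 and hrde-1, which bind small RNAs in the germline, 2.80 (SE 1.22) and 2.08 (SE 0.95), none of them called. Outside the list, the Argonaute vsra-1 and the germ granule protein lotr-1 rose, with 3.57 (SE 0.95) and 3.69 (SE 1.02) in the authors' deposited table, and lost their calls under the wider adjustment (0.0658 and 0.100). In spr-5 these had 1.37 and 0.30, and in met-2 1.08 and 2.71, none called. csr-1, hrde-1, vsra-1 and lotr-1 were named after their values were seen.

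P granules are the germ cells' RNA-protein bodies. Their list had 0 calls by DESeq2 among 7 genes, against 1.11% of all genes. At an unadjusted p under 0.05, 2 were higher, against 4.33% of all genes, and the list's median was 0.37. The median was 0.85 at a base mean of at least 10 and 0.81 at one of at least 100. glh-1, the Vasa-like helicase of P granules, had 2.96 (SE 0.97, adjusted p 0.168) and mex-5, which sets up their place in the embryo, 2.77 (SE 0.99, adjusted p 0.266) by the authors' deposited table. glh-2 had 1.25 (SE 1.24) there. Translational regulators had 0 calls among 15 genes, against 1.11% of all genes, and a median of 0.26. An unadjusted p under 0.05 was listed for 5 higher and 1 lower, against 4.33% and 0.947% of all genes. cpb-1, a CPEB protein of spermatogenesis, had 3.30 (SE 1.04), the poly(A) polymerase gld-2 had 2.98 (SE 1.04), and gld-1, a repressor of translation, had 2.77 (SE 1.04) in the authors' deposited table. In the other direction puf-3, a Pumilio protein of oocytes, had -2.22 (SE 1.09) there. The median was 1.84 when a base mean of at least 100 was asked for. Oocyte and eggshell genes had 0 calls among 10, against 1.11% of all genes. At an unadjusted p under 0.05, 2 were higher, against 4.33% of all genes, and the median was 0.94. That median turned in sign, to -0.19 with 8 above 0, over all 17 members with a value, and was 0.57 over the 8 that reached 50 in a single-mutant comparison. egg-4, needed at fertilization, had 2.81 (SE 0.98), the eggshell protein cbd-1 2.09 (SE 0.95) and the eggshell proteoglycan cpg-2 -1.48 (SE 1.08) in the authors' deposited table.

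Transcripts of adults or embryos among the larvae were sought beside these results. The 25 msp genes in the table, which make the major sperm protein, had a summed base mean of 11.5, with 15 listed at 0, and none reached 50. Among spe and related sperm genes 3 of 53 reached it, none called. spe-44, a transcription factor of sperm formation, had 2.88 (SE 1.17), spe-51 1.57 (SE 1.07) and spe-39 -0.58 (SE 0.96) in the authors' deposited table. Of these 3, 2 reached the minimum in the double mutant comparison alone, and such a gene had to be high there. Of the 3 sperm genes that reached 50 in a single-mutant comparison, 1 lay above 0, and the median was -0.11. Of the yolk genes of the adult intestine, vit-5 was present at a base mean of 107 and fell (-4.25), vit-4 had 14.8 and a log2 value of -3.66, not called, vit-2 had 2.72 and vit-6 was listed at 0 in the authors' deposited table. Yolk RNA was thus present, and lower in the double mutant for vit-5. Of the eggshell genes, cbd-1 had a base mean of 679 and 2.09 on the log2 scale (SE 0.95), not called, in the authors' deposited table. There chs-1 had a base mean of 88.9 and 1.28 (SE 1.15), and perm-2 a base mean of 3.27. The early embryo genes pie-1 and skn-1 had base means of 23.7 and 149, with 1.43 (SE 1.22) and 1.11 (SE 1.09) there. pos-1 was not matched. The part of stray adults or embryos in the germline values was not tested.

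**Figure D4:**
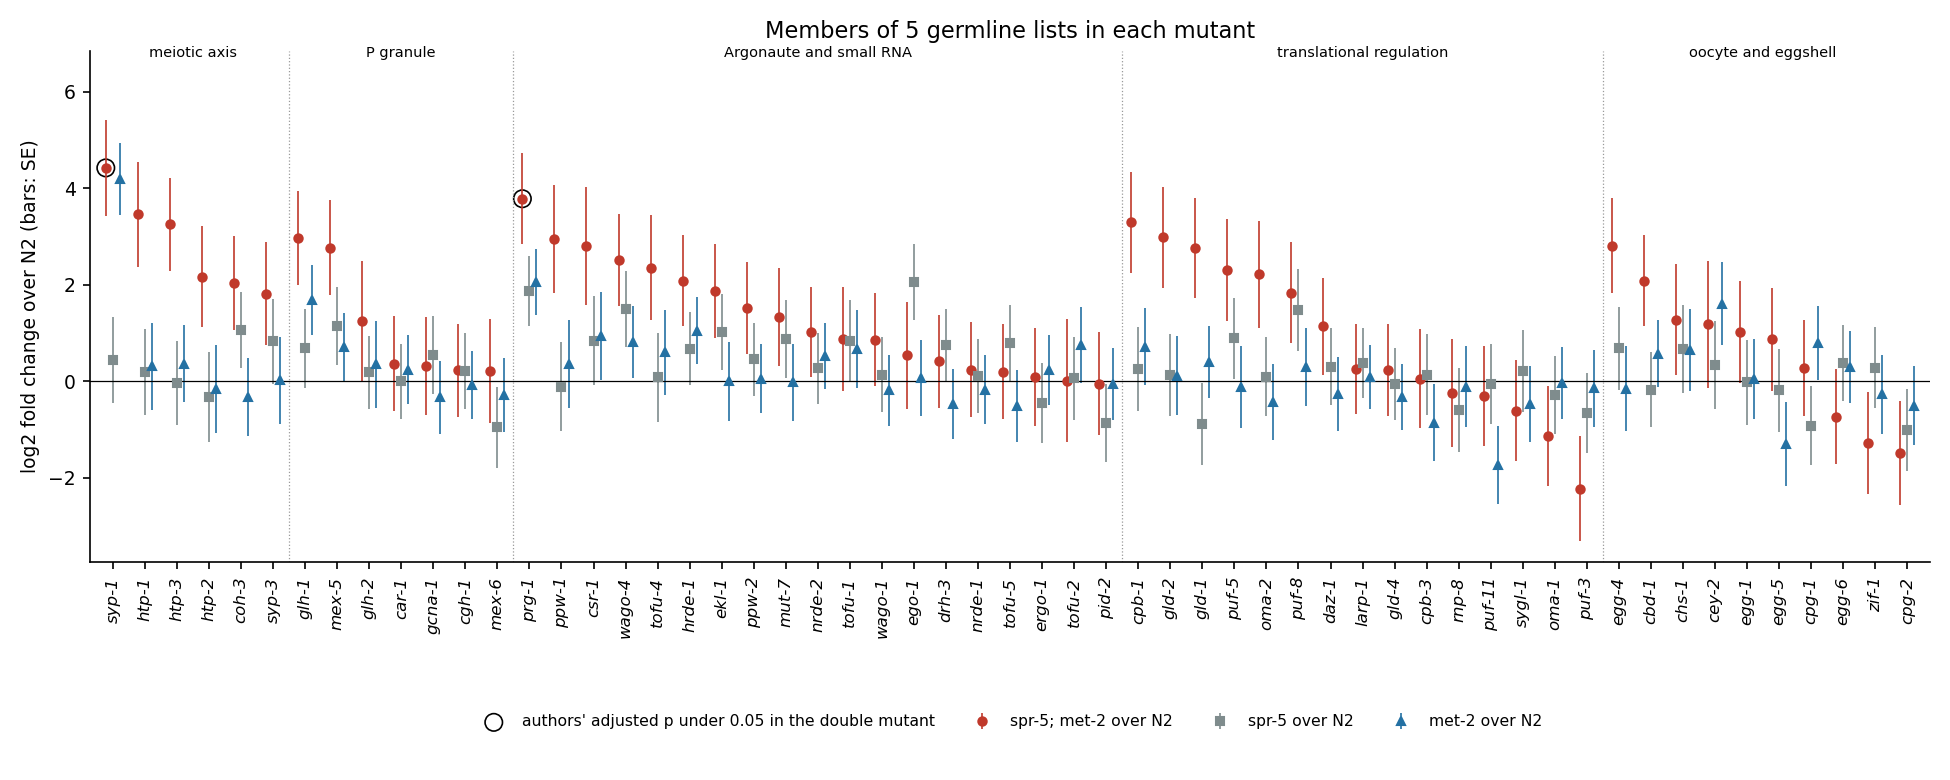
For members of 5 germline lists at a base mean of at least 50, points give the authors' log2 fold change over N2 in the double mutant (circles), spr-5 (squares) and met-2 (triangles) with SE bars. Rings mark the calls of the double mutant, syp-1 at 4.42 and prg-1 at 3.78, and in met-2 syp-1 lies at 4.20.

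Falls were few and led by genes of unlike kinds. vit-5, a yolk protein gene of the adult intestine, fell with -4.25 on the log2 scale (SE 1.04, adjusted p 0.00947) by the authors' deposited table, where spr-5 had -1.57 (SE 0.77) and met-2 -0.03 (SE 0.86). Its base mean was 107. vit-4 had -3.66 (SE 1.35) at a base mean of 14.8 in the authors' deposited table, not called and named after its value was seen. sdz-28, named as a zygotic transcript that depends on skn-1, fell with -4.73 (SE 1.19, adjusted p 0.0155), and sdz-24, the other sdz gene at a base mean of at least 50, had -1.72 (SE 1.08) in the authors' deposited table. Over all 26 sdz genes with a value the median was -0.50. srd-19, of a chemoreceptor family, fell with -4.57 (SE 1.27) and F41F3.3 with -4.46 (SE 1.21) in the authors' deposited table, calls that the wider adjustment removed (0.100 and 0.0810). NM_061823, without a symbol here, fell with -5.15 (adjusted p 0.00450) there, and with it 5 of the 6904 transcripts fell, 0.0724%. Below a base mean of 50, NM_066350, C08F1.6, hmit-1.1, a myo-inositol transporter, and grl-6, of a hedgehog-related family, fell with -4.89, -4.79, -4.75 and -4.50 in the authors' deposited table, named after their values were seen, and none kept its call under the wider adjustment. srd-19 had -3.04 in spr-5 and -2.46 in met-2 in the authors' tables, whereas sdz-28 had 0.13 and -0.10 and F41F3.3 had -0.17 and 0.04, none called. The next lowest value without a call was that of cut-3, a cuticle component of L1 larvae, with -4.18 (SE 1.18, adjusted p 0.0541) by the authors' deposited table, named after its value was seen.

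C-type lectins, a large family of secreted proteins many of which respond to bacteria, had no call by DESeq2 and a low median. Of the 39 at a base mean of at least 50, an unadjusted p under 0.05 was listed for 2 that were higher and 6 that were lower, against 4.33% and 0.947% of all genes, 27 lay below 0, and the median was -0.73, computed from the authors' deposited table, against -0.47 in spr-5 and -0.17 in met-2. clec-72 had -3.64 (SE 1.17), clec-17, at a base mean of 1021, -3.19 (SE 0.99), and clec-226 3.68 (SE 1.26) in the authors' deposited table. Antimicrobial and lysozyme genes had 0 calls among 28, 21 below 0 and a median of -0.41, with lys-7 at -2.50 (SE 1.19), spp-2 at -1.82 (SE 1.10) and fipr-1 at -1.46 (SE 0.98) in the authors' deposited table. At an unadjusted p under 0.05, 1 of them was lower. Cuticle collagens had 0 calls among 13, 10 below 0 and a median of -0.69, with col-80 at -2.24 (SE 1.15), col-39 at -1.62 (SE 1.06) and col-153 at 1.31 (SE 1.03) in the authors' deposited table. The digestive proteases of the cpr and asp families had 0 calls among 13, 11 below 0 and a median of -0.54, with cpr-2 at -1.53 (SE 0.97) and asp-13 at -1.57 (SE 1.16). None of the collagens or proteases had an unadjusted p under 0.05.

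Genes of differentiated somatic tissues had no call. Across muscle, intestine, neuron and hypodermis lists 63 genes reached a base mean of 50, and 0 were called by DESeq2. Of all genes 1.11% were called, and at that share 0 calls do not set the 63 apart. An unadjusted p under 0.05 was listed for 1 higher and 0 lower, against 4.33% and 0.947% of all genes. Their median was -0.21, computed from the authors' deposited table. None of the 63 owed its depth to the double mutant comparison alone. The 23 muscle genes ran from -1.30 to 0.06, with 20 below 0 and a median of -0.27. unc-54, the body wall myosin, had -0.23 (SE 0.96), and unc-22, the giant kinase twitchin, -1.30 (SE 1.22) in the authors' deposited table. The 20 intestine genes had a median of -0.15, with the metallothionein mtl-1 at -1.14 (SE 0.96), the cathepsin cpr-1 at -1.22 and the esterase ges-1 at -0.94 (SE 1.00). The 14 neuron genes had a median of -0.02, with the touch channel mec-4 at -0.94 (SE 1.23) and the diacetyl receptor odr-10 at -0.89 (SE 1.23). In the hypodermis list 6 genes had a median of 0.58. There the collagen dpy-14 had 2.77 (SE 1.16), not called, against 2.04 (SE 0.84) in spr-5 and 3.56 (SE 0.77, called) in met-2 in the authors' deposited tables.

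Regulators of development and growth gave no call by DESeq2. Of all genes 1.11% were called, a share at which short lists can hold none. Hox and somatic fate transcription factors had a median of -0.20 over 12 genes, with vab-3 at -1.31 (SE 1.02), the muscle factor unc-120 at -1.13 (SE 0.96) and the Hox gene mab-5 at 1.11 (SE 0.99) in the authors' deposited table. The list of L1 arrest and insulin signalling had a median of 0.32 over 12, with the insulin daf-28 at 1.72 (SE 0.98). Heat shock and chaperone genes had a median of 0.59 over 12, with hsp-110 at 1.44 (SE 0.99), hsp-1, an Hsp70, at 1.34 (SE 0.97) and the small hsp-12.3 at -2.12 (SE 1.10). Detoxification genes had a median of 0.05 over 11 and dosage compensation genes one of 0.13 over 14. None of the genes in these 5 lists had an unadjusted p under 0.05, against 5.28% of all genes in either direction. Kinetochore genes had a median of 0.41 over 19, with hcp-1 at 2.27 (SE 1.02), and DNA replication genes one of 0.21 over 20, with orc-1, of the origin recognition complex, at 2.86 (SE 1.15) in the authors' deposited table. Each of these 2 lists had 1 higher member at an unadjusted p under 0.05, against 4.33% of all genes.

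The histone H3 methylation genes of the list also stayed without a call. set-24, which carries a SET domain and rose with 4.82 on the log2 scale, is not in that list. Of its 18 writers, erasers and readers, 0 had an unadjusted p under 0.05, against 5.28% of all genes. The median of the 18 was -0.06, computed from the authors' deposited table. set-2, the main lysine 4 methyltransferase, had 2.15 (SE 1.12), and cec-4, which anchors chromatin marked at lysine 9 to the nuclear envelope, 1.33 (SE 0.95) in the authors' deposited table. The synMuv and DREAM repressors, known for silencing germline genes in the soma, had a median of 0.41 over 14 and 0 with an unadjusted p under 0.05. lin-35, the worm retinoblastoma protein, had 1.31 (SE 1.02), lin-15B 1.18 (SE 0.94) and lin-13 1.05 (SE 0.95) in the authors' deposited table.

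Of the large housekeeping families, ribosomal and mitochondrial genes lay on opposite sides of 0 by small amounts. Of 46 cytosolic ribosomal protein genes 43 lay above 0 with a median of 0.41, and 0 were called by DESeq2. Of 22 genes of the mitochondrial respiratory chain 20 lay below 0 with a median of -0.41, and 0 were called, both computed from the authors' deposited table. In spr-5 and met-2 the medians were 0.04 and 0.0014 for ribosomal genes and -0.23 and -0.08 for mitochondrial ones. A single member stood out from each, rpl-11.1 at 2.32 (SE 0.94) and sdha-2 at 2.35 (SE 0.99) in the authors' deposited table, each the only one of its family with an unadjusted p under 0.05. Of 27 proteasome genes 20 lay above 0 with a median of 0.26, led by pbs-3 at 1.68 (SE 0.98), and none had an unadjusted p under 0.05. Histone genes had a median of 0.20 over 20, with his-74 at 2.48 (SE 1.21) the only one with an unadjusted p under 0.05.

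Chemoreceptors, which seldom reach this depth in whole larvae, had 40 members at a base mean of at least 50 of 1338 in the table. srxa-10 rose with 4.92 (SE 1.25, adjusted p 0.0169) by the authors' deposited table, and it overlaps mcm-6. With srd-19 this made 1 rise and 1 fall among the 40, against 1.05% and 0.0664% of all genes. The median of the 40 was 0.40, and 12 of them, srxa-10 included, reached the minimum in the double mutant comparison alone. Over all 1142 with a value the median was -0.31, which was also the median of all transcripts below a base mean of 1. Of the 44 that reached 50 in a single-mutant comparison, 18 lay above 0. Their median was -0.17, against -0.02 over all such genes. sri-31 had 2.99 (SE 0.97) in the double mutant and 2.85 (SE 0.72) in met-2 in the authors' tables, not called. Nuclear hormone receptors had a median of -0.01 over 65, with nhr-258 at 3.34 (SE 1.10) and nhr-65 at 3.27 (SE 1.21) the only ones with an unadjusted p under 0.05. Neuropeptide genes had a median of 0.04 over 63 and none with an unadjusted p under 0.05. No member was called by DESeq2 in either family, against 1.11% of all genes.

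The remaining families had 0 calls by DESeq2 at a base mean of at least 50 as well, against 1.11% of all genes. Medians were computed from the authors' deposited table. Cytochrome P450 genes had a median of 0.21 over 21 with 2 lower at an unadjusted p under 0.05, among them cyp-43A1 at -2.35 (SE 1.15). UDP-glucuronosyltransferases had -0.41 over 16 with 1 lower, ugt-22 at -2.46 (SE 1.21). Glutathione S-transferases had -0.09 over 17, with gst-35 at 2.60 (SE 1.08) and gst-41 at -2.77. Hedgehog-related and patched-related genes had 0.14 over 21, with grl-17 at 3.31 (SE 1.19) the only one with an unadjusted p under 0.05. Astacin proteases had 0.63 over 5, with nas-14 at 3.22 (SE 1.23), and chitinase-like genes -0.13 over 6, with chil-18 at 3.05 (SE 1.10), each the only such member of its family. Long intergenic non-coding RNAs had 0.26 over 27 with 2 higher, linc-107 at 3.12 (SE 1.18) and linc-93 at 2.60 (SE 1.27). Homeobox genes had 0.09 over 21, ligand-gated channels -0.17 over 21, insulin-like peptides 0.47 over 5, desaturases and elongases -0.48 over 7, small heat shock proteins -0.78 over 3, and tbx-31 was the single T-box gene at 0.98, none with an unadjusted p under 0.05.

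**Figure D5:**
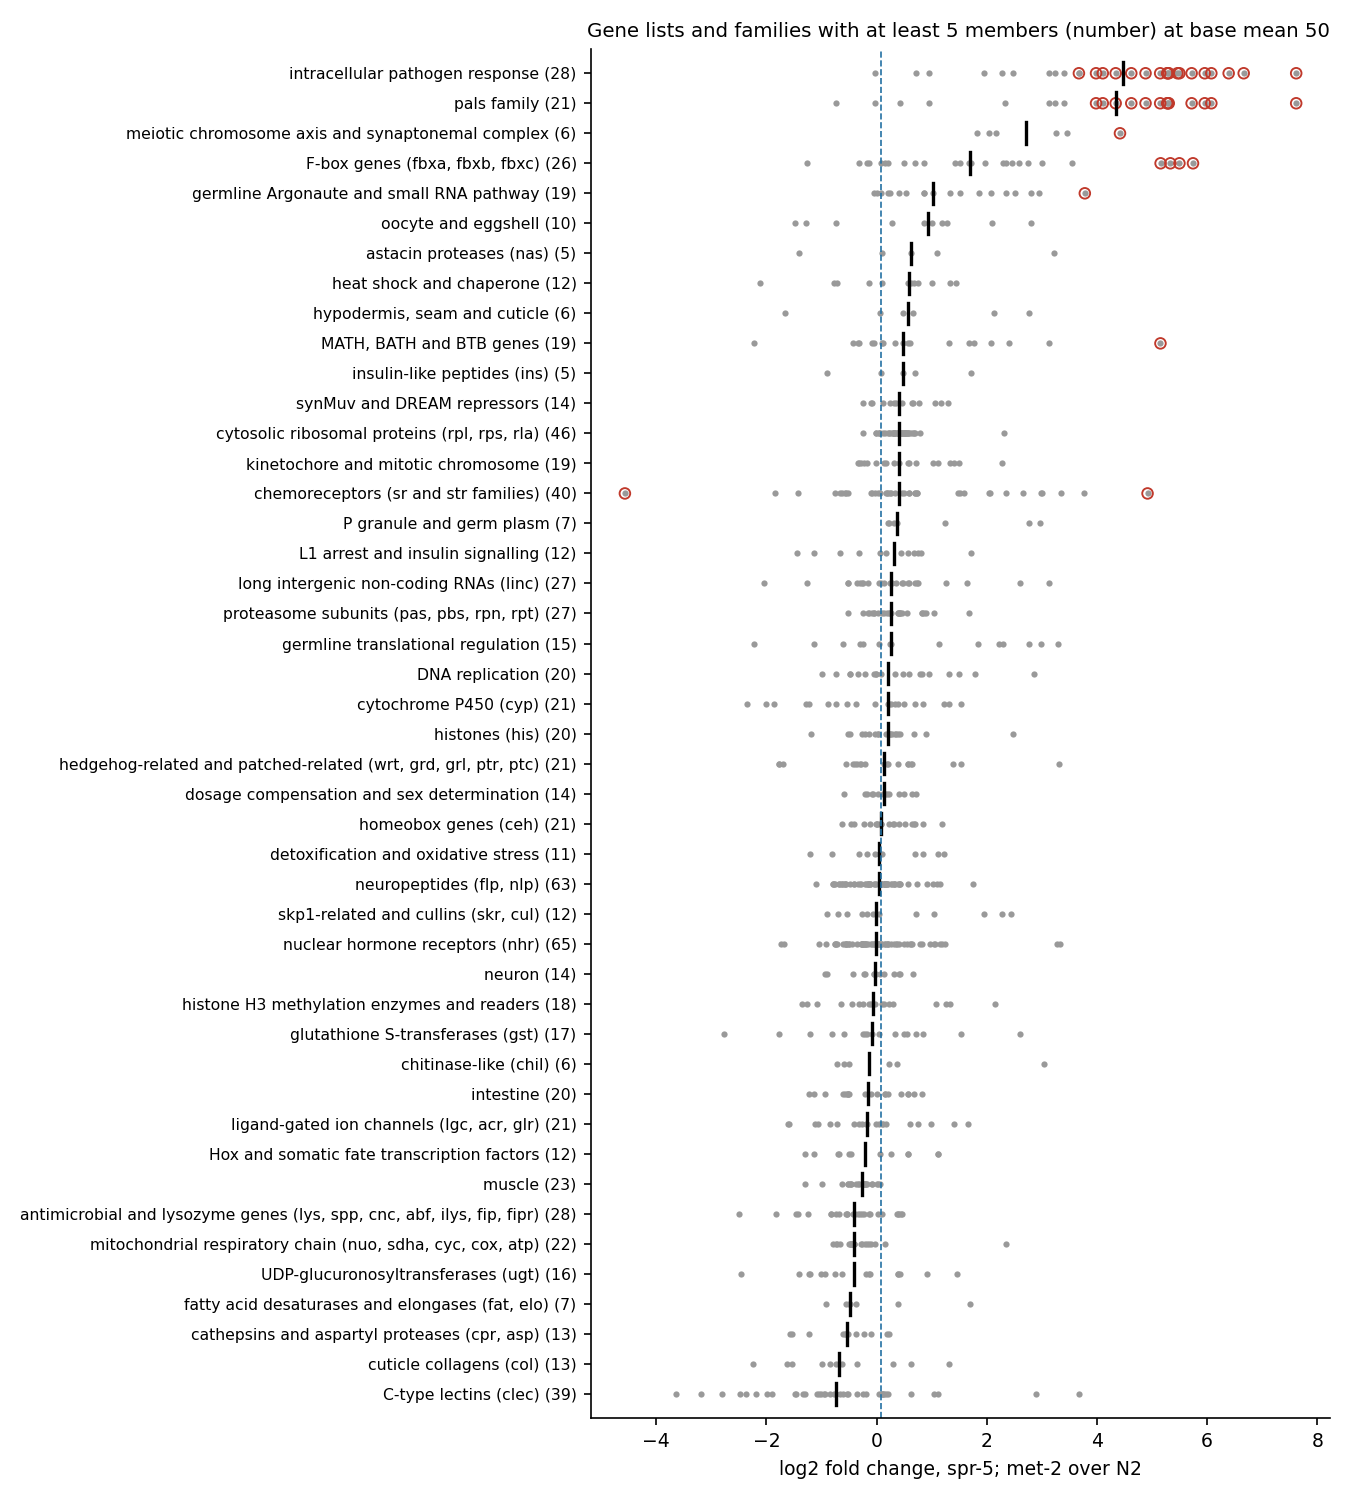
Each row is a gene list or family with at least 5 members at a base mean of at least 50 (number in brackets), grey points are its members' log2 fold changes over N2 in the double mutant, the black tick is their median and red rings are called genes. The dashed line is the median of all genes, 0.09. Pathogen response genes at 4.48 and pals genes at 4.34, rows that share members, have the highest of the 45 medians. Of their members 14 of 28 and 13 of 21 reached the minimum in the double mutant comparison alone. Over all members with a value these medians were 3.67 and 3.24.

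Rises were found on every chromosome, with few on X. On chromosome V, 21 of 1100 genes rose and 2 fell in the authors' deposited table, and on chromosome I 14 of 1070 rose. Chromosomes II, III and IV had 10 of 1003, 8 of 1056 and 9 of 907 rises, with 1 fall, on II. On X, 1 of 886 rose, F28C10.1, and 1 fell, vit-5. The share called was 2.09% on V and 0.226% on X, against 1.11% of all genes, and the runs of neighbours make these counts fewer independent events than genes. Medians of the log2 fold changes were 0.14, 0.14, 0.15, 0.07, 0.04 and -0.07 from I to X, computed from the authors' deposited table, so the X chromosome was the only one with a median below 0.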

How the data were processed

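Per the labels' protocols, RNA of whole starved L1 larvae was extracted with TRIzol and sequenced on a HiSeq. FastQC, Trimmomatic, featureCounts, DESeq2 2.11.40.2 and ce10 are named in the submitters' processing notes. The aligner, annotation and use of strand are not given in the sources used here. The authors deposited 3 tables, each of a mutant against N2. These deposited tables hold the base mean, a signal value in scaled reads, the log2 fold change with its SE on the log2 scale, their ratio as a Wald score, and unadjusted and adjusted p-values, all as the authors deposited them. Columns of single-sample values left unused numbered 0.

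Symbols, neighbours and chromosomes came from RefSeq assembly WBcel235, which matched 46074 of 50832 transcripts (90.6%). No sequence is printed. Counts and medians were computed with Python 3.11.15, pandas 2.3.3 and NumPy 2.4.6, figures with matplotlib 3.10.9, and the Benjamini-Hochberg step was tested on simulated data. Named genes are the 20 largest rises, all falls, and in each list or family the called members and, up to 3 in all, those with the smallest unadjusted p, unless said otherwise. Genes, lists and families were chosen with earlier results of these data known. The plan's count model was not used because the tables hold no counts.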

Additional observations from a re-analysis of the deposited data

How the results depend on the processing

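At the authors' adjusted p under 0.01, 52 of the 87 called transcripts were left (50 higher and 2 lower), which follows from the stricter threshold. With Benjamini-Hochberg adjustment over every p-value listed, 64 were left (61 higher and 3 lower), and a log2 fold change of at least 1 in size removed none. For genes at a base mean of at least 50 the count moved from 67 to 46, 54, 79 and 51 at adjusted p under 0.01, under the wider adjustment, at a base mean of at least 10 and at one of at least 100. The transcript with the largest sum of base means for each gene left 67. The median of all genes was 0.03 at a base mean of at least 10 and 0.11 at one of at least 100. Medians that changed sign were close to 0 or rested on few genes. At a base mean of at least 10 they were detoxification (-0.04), hedgehog-related genes (-0.20), glutathione S-transferases (0.19) and long intergenic non-coding RNAs (-0.12). At one of at least 100 they were histone H3 methylation (0.09), neurons (0.03), somatic fate factors (0.26), sperm genes (-0.58, 1 gene), nuclear hormone receptors (0.03), glutathione S-transferases (0.50) and skr and cul genes (0.05). The cause was not tested. No paired analysis was possible because single samples have no values in these files. Leaving out libraries, edgeR, TMM and filters on counts were not run for the same reason. With SEs near 1, changes of a few fold could not be called.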
